A study of Homo sapiens with 4 samples.

Results

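Solute carriers (SLC) are membrane proteins that move sugars, amino acids, ions, metals, vitamins and lipids across the plasma membrane and organelle membranes without spending ATP directly. They are grouped into numbered families by sequence, and members of a family often carry related substrates. In leukaemic cells they supply nutrients and metals, and in erythroid cells they also serve iron uptake, iron export and bicarbonate exchange. In the deposited table, 42 of 3200 rows had a symbol that begins with SLC and a digit, leaving out SLC25A40, and these 42 genes are described here. They came from 22 families. GENCODE release 29 holds 373 such protein-coding genes outside SLC25A40, so 11.3% of them were in the table, against 11.5% of all protein-coding genes. The other SLC genes were not analysed here.

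RNA was measured by poly-A RNA-seq in 4 libraries of K562, an established human chronic myeloid leukaemia line driven by the BCR-ABL fusion kinase, with 1 library per group. The groups were untreated wild-type K562 cells (parental), the imatinib-resistant line K562/IMR, also untreated (resistant), K562 cells given R-Exo for 48 h, and K562 cells given S-Exo for 48 h, which the series names as the control of R-Exo. From the series title and design, R-Exo was taken to mean exosomes (secreted vesicles) from imatinib-resistant cells, and S-Exo those from sensitive cells. The resistant cells are a single line with 1 library, so a difference from parental cells cannot be told apart from a difference between these particular cultures. Imatinib inhibits the BCR-ABL kinase. Values are FPKM, fragments scaled to gene length and library size, and the authors had already selected the genes of the table as differentially expressed. With 1 library per group, replicate error is unknown for every difference, and no p-value was computed.

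The R-Exo library resembled the resistant library and not the parental one. On the log2 (FPKM + 1) scale, Pearson's r over the 3200 genes was 0.974 between R-Exo and resistant and 0.977 between S-Exo and parental, and the other 4 pairs lay between 0.729 and 0.736. Because the genes were selected as differentially expressed, r between unlike libraries can be lower here than over all genes. ABCB1, the drug efflux pump gene of chromosome 7, had 778 FPKM in resistant and 677 in R-Exo, against 0.222 in parental and 0.0985 in S-Exo. What sets R-Exo beside resistant was not tested. An effect of the vesicles, resistant cells carried into the culture and an exchange of libraries cannot be told apart with this table, so the values of R-Exo are given as those of the library labelled R-Exo. The 42 SLC genes were spread over 17 chromosomes, with a count of 0 on chromosome 7. SLC25A40 had been left out of the set beforehand, so this count says nothing about SLC genes of that chromosome. The K562 identity list (embryonic and fetal globins, red-cell membrane genes, erythroid factors) had 3 of 10 genes in the table, which summed to 722 FPKM in parental, 762 in S-Exo, 1305 in resistant and 1443 in R-Exo. Of these 3, the embryonic globin gene HBZ and the red-cell surface gene GYPB were higher in resistant and R-Exo, while TFRC was lower. Of the markers of other cell types, the table held 1 of 5 megakaryocyte genes, 1 of 4 T cell genes, 1 of 4 B cell genes, 1 of 5 myeloid genes and 1 of 3 fibroblast genes. The T cell gene CD3D had 0.410 FPKM in parental, 0.677 in S-Exo, 8.85 in resistant and 7.27 in R-Exo. The listed megakaryocyte, B cell and myeloid genes were likewise higher in resistant and R-Exo, and none of the listed markers was at 0. The fibroblast gene COL1A1 went the same way under 1 FPKM, with 0.246 in parental, 0.192 in S-Exo, 0.813 in resistant and 0.745 in R-Exo. Their part in the differences below was not tested.

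The 4 metal carriers with enough signal to compare are used as the example of promoter sequence, because 2 of them were lower and 2 higher in resistant cells. Of the 42 genes, 34 had a promoter in RefSeq (GRCh38.p14), a window of 250 bases before to 50 bases after the gene's start. Only 1 start was used per gene, and other annotated starts were not searched. For SLC39A8 and SLC40A1 the window lies inside the gene as GENCODE bounds it (chr4:102251041-102431258 and chr2:189560579-189583758). The 250 bases before the start are printed 5′ to 3′ on the gene's strand. Capitals mark matches to the core of the metal response element, the site of the zinc-sensing factor MTF1, searched as TGCACNC or TGCGCNC on both strands. The windows are those of SLC40A1 (chr2:189580787-189581036, minus strand), SLC30A1 (chr1:211579162-211579411, minus strand), SLC39A8 (chr4:102345254-102345503, minus strand) and SLC39A13 (chr11:47407026-47407275, plus strand).
SLC40A1: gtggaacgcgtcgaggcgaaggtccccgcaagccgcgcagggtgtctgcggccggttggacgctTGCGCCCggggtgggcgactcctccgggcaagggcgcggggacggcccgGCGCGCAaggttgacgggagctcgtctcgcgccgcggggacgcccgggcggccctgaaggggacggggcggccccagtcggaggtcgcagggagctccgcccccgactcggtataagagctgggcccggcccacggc
SLC30A1: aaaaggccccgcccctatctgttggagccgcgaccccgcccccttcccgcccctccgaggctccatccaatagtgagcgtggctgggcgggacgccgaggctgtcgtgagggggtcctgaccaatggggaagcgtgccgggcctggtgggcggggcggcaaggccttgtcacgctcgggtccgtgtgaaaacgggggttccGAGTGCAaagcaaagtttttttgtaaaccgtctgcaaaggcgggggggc
SLC39A8: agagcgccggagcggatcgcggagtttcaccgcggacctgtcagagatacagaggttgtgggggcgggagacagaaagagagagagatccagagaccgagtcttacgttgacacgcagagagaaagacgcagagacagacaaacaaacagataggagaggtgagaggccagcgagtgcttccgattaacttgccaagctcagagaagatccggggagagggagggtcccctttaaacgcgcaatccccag
SLC39A13: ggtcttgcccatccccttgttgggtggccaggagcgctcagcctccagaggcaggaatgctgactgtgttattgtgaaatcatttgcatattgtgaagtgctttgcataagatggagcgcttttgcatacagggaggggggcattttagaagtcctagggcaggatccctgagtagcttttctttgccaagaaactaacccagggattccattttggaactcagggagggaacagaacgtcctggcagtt
The exporter promoters SLC40A1 and SLC30A1 each held 2 matches in the 300-base window. Those of SLC40A1 began 186 and 137 bases before the start, and those of SLC30A1 began 49 bases before it and at base 25 after it, outside the printed stretch. The promoters of the ZIP family genes SLC39A8 and SLC39A13 held no match. The promoter of SLC30A4, the metal carrier left out for low signal, held a match as well. Its level was under 1 FPKM in every library, with resistant (0.998) and R-Exo (0.788) above parental (0.378) and S-Exo (0.396). The 4 genes with printed sequence were picked with their directions known. Over the genes counted in both resistant against parental and R-Exo against S-Exo, 2 of 7 promoters of lower genes (SLC12A7 and SLC40A1) and 1 of 2 of higher genes (SLC45A3) held a match. Over all 27305 RefSeq promoters of this length 29.3% held a match, and over the 34 SLC promoters 50.0% did. The SLC promoters also had more G and C, with a median of 68.2% against 58.3%. The GATA letters AGATAA were in 8.82% of SLC promoters and 10.5% of all, and the E-box CACGTG in 8.82% and 7.43%. The amino acid response letters TGATGNAA, known from ATF4 targets, were in 0 of the 34 SLC promoters and in 3.67% of all. Such matches describe letters and show no binding.

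SLC genes were more often lower than higher in resistant than in parental cells. For each gene the difference was log2 of (FPKM + 1) in one library minus the other, taken where one or both libraries reached 1 FPKM, and an absolute value of at least 1 was counted. This scale understates differences of weakly expressed genes. Of 30 SLC genes compared, 9 were counted as lower and 4 as higher. Over all 2151 compared genes of the table, 18.1% were lower and 28.0% higher, against 30.0% and 13.3% of the SLC genes. The median SLC difference was -0.68, and the median of all compared genes was 0.42. Relative to that median the SLC median was -1.10, and with it set to 0 the counts became 17 lower and 1 higher. On that scale 35.1% of all 2151 compared genes were lower and 12.8% higher. The re-scaling takes the typical gene of the table as unchanged. These genes were selected as differentially expressed, so it is an alternative and not a correction. The summed FPKM of the 42 genes was 248 in parental, 242 in S-Exo, 162 in resistant and 149 in R-Exo. Such a sum follows the most expressed genes. From parental to resistant, SLC6A8 went from 45.3 to 19.9 FPKM, SLC37A4 from 40.2 to 14.2 and SLC27A2 from 19.1 to 1.56. SLC40A1 went from 22.0 to 6.95, and SLC39A8 the other way, from 18.8 to 42.1. The median FPKM of the 42 genes was nearly equal in parental and R-Exo, lowest in resistant and highest in S-Exo. In bulk RNA, fewer cells with a transcript and less transcript per cell cannot be told apart. The comparison with the background describes these genes, not the whole SLC superfamily.

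**Figure D1:**
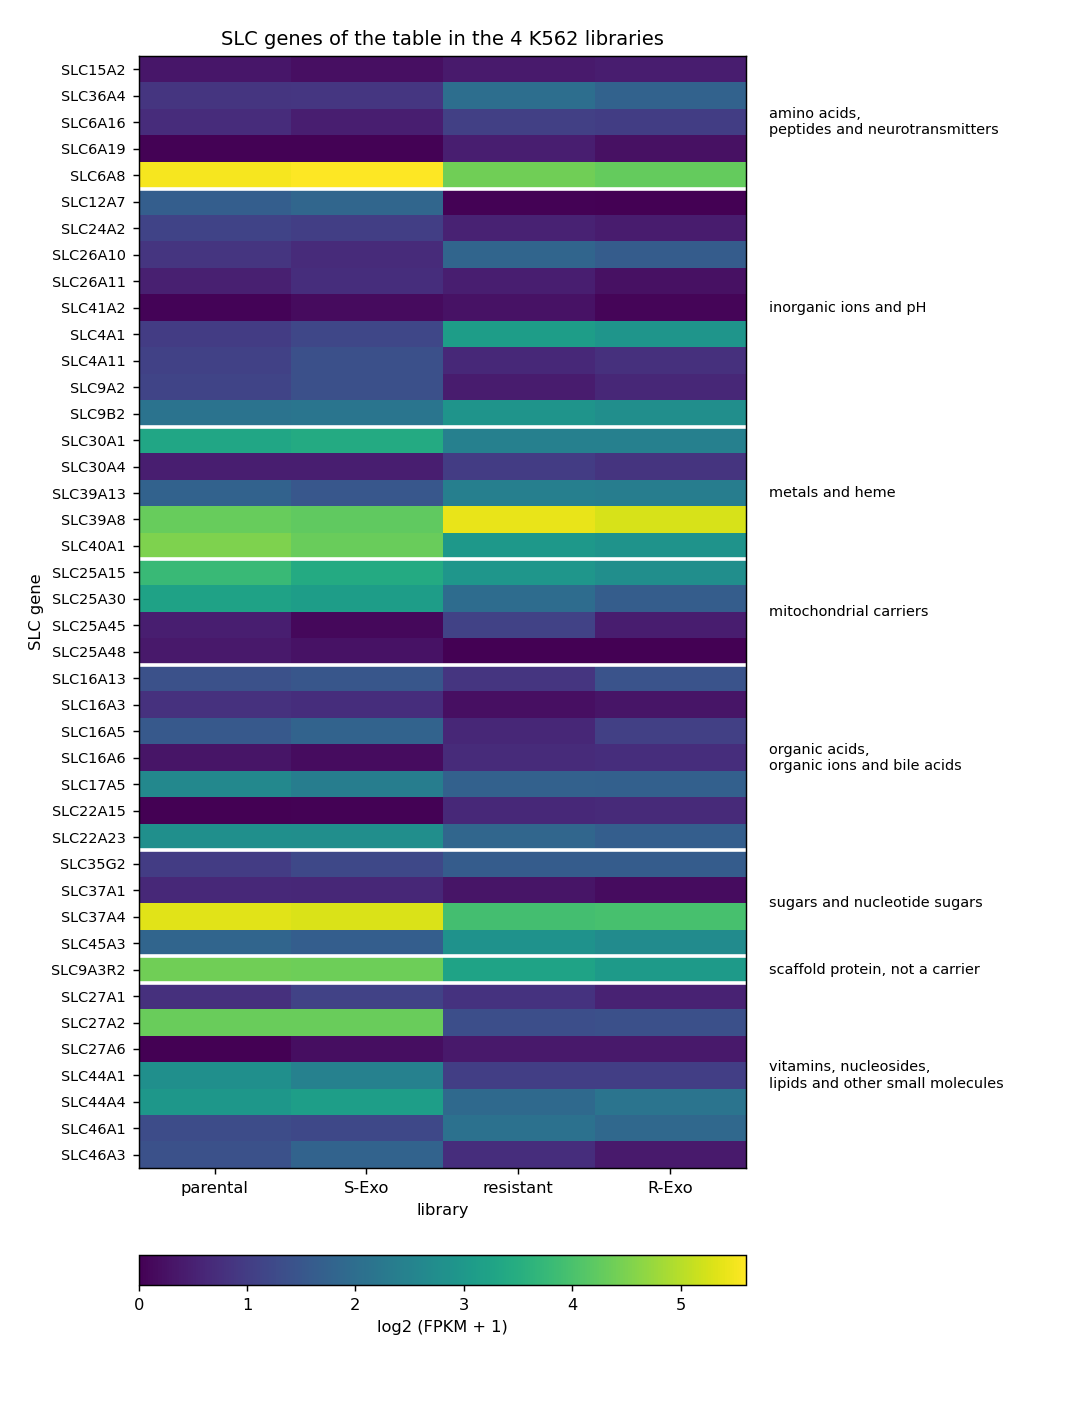
Heat map of log2 (FPKM + 1) for the 42 SLC genes (vertical axis, grouped by substrate) in the 4 libraries (horizontal axis), 1 library per group. The parental and S-Exo columns look alike, as do the resistant and R-Exo columns. SLC6A8, SLC37A4 and SLC40A1 are brighter on the left, and SLC39A8 and SLC4A1 on the right.

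Carriers of lipids, choline and vitamins held the lowest gene of the set. SLC27A2, a fatty acid transport protein and very-long-chain acyl-CoA synthetase, had 19.1 FPKM in parental, 19.0 in S-Exo, 1.56 in resistant and 1.59 in R-Exo. Both parental-like libraries were more than an order of magnitude above both others, and the resistant level was 12.2-fold lower (log2 difference -2.97). SLC27A2 (chr15:50182196-50236395, plus strand, GRCh38) shares 19.9% of its exonic bases with ATP8B4 on the opposite strand, and whether counting used strand is unknown here. SLC44A1, the ubiquitous choline transporter, had 5.94 FPKM in parental, 4.52 in S-Exo, 1.07 in resistant and 1.05 in R-Exo, a difference of -1.75. SLC44A4, its relative, had 6.79, 7.86, 2.80 and 3.49 FPKM in that order of libraries and lay just inside the limit at -1.03. These 3 genes were the counted ones of 5 compared in this mixed class of vitamin, nucleoside, lipid and other carriers, whose median was -1.03. Over all compared genes 18.1% were lower and 28.0% higher, with a median of 0.42, which 5 genes cannot be set apart from. The remaining compared genes of the class differed in sign. SLC46A1, the proton-coupled folate transporter, had 1.48 FPKM in parental, 1.33 in S-Exo, 3.24 in resistant and 2.71 in R-Exo (difference 0.77). It shares 56.4% of its exonic bases with SARM1 on the opposite strand. SARM1 had between 0.135 and 0.227 FPKM. SLC46A3, a lysosomal member of the same family, had 1.64 FPKM in parental, 2.46 in S-Exo, 0.669 in resistant and 0.320 in R-Exo (difference -0.66).

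Sugar-phosphate and sugar carriers differed in both directions. SLC37A4, which brings glucose 6-phosphate into the endoplasmic reticulum for glucose release, had 40.2 FPKM in parental, 38.0 in S-Exo, 14.2 in resistant and 14.8 in R-Exo. Its difference was -1.44, a ratio of 2.84 in favour of parental. TRAPPC4, which overlaps 8.79% of its exonic bases on the opposite strand, had 104, 110, 48.7 and 46.5 FPKM in that order, so reads of the pair could have been shared. SLC45A3, known from prostate as prostein, had 2.55 FPKM in parental, 2.18 in S-Exo, 6.28 in resistant and 5.56 in R-Exo, a difference of 1.04. It was no longer counted with the median of all genes set to 0 (0.62) or after quantile normalization (0.88). SLC35G2, grouped here by its family number, was on the same side without reaching the limit, at 0.992, 1.33, 2.11 and 2.09 FPKM (difference 0.64).

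Amino acid and creatine carriers were split. SLC6A8, the creatine transporter, had the highest level of all 42 genes in parental (45.3 FPKM) and S-Exo (47.7), and 19.9 in resistant and 18.3 in R-Exo. The difference was -1.15, and both resistant-like libraries were lower. SLC6A8 has near-identical pseudogene copies elsewhere in the genome, so its reads may be divided among them. SLC36A4, a high-affinity carrier of proline and tryptophan, had 0.809 FPKM in parental, 0.863 in S-Exo, 3.06 in resistant and 2.38 in R-Exo, a difference of 1.17. It was no longer counted with the median of all genes set to 0 (0.75) or after quantile normalization (0.98). The orphan carrier SLC6A16 differed by 0.36 at 0.634 FPKM in parental and 1.10 in resistant.

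Ion carriers held the highest difference of the set. SLC4A1, which encodes band 3, the chloride and bicarbonate exchanger and main membrane anchor of red cells, had 0.983 FPKM in parental, 1.29 in S-Exo, 7.70 in resistant and 6.62 in R-Exo. Its resistant level was 7.83-fold higher (difference 2.13), and the library pairs did not overlap. GYPB, another red-cell membrane gene, had 18.4 FPKM in parental, 16.2 in S-Exo, 89.9 in resistant and 91.7 in R-Exo, and it can share reads with close paralogs. SLC12A7, the potassium-chloride cotransporter KCC4, had 2.17 FPKM in parental, 2.60 in S-Exo and 0.0236 in resistant, and R-Exo listed it at 0. Its difference was -1.63. The other 5 compared ion carriers stayed within the limit. SLC9B2, a sodium-proton exchanger, had 3.37 FPKM in parental, 3.54 in S-Exo, 6.42 in resistant and 5.86 in R-Exo (difference 0.76). SLC26A10 had 0.833, 0.619, 2.55 and 2.11 FPKM (difference 0.95). It shares 50.0% of its exonic bases with B4GALNT1 on the opposite strand, which had 2.27, 2.32, 6.04 and 6.38 FPKM in the same order, so the pair cannot be told apart. SLC9A2, SLC24A2 and SLC4A11, of sodium-proton exchange, sodium-calcium-potassium exchange and corneal ion transport, were lower by 0.71, 0.60 and 0.44 on the log2 scale.

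**Figure D2:**
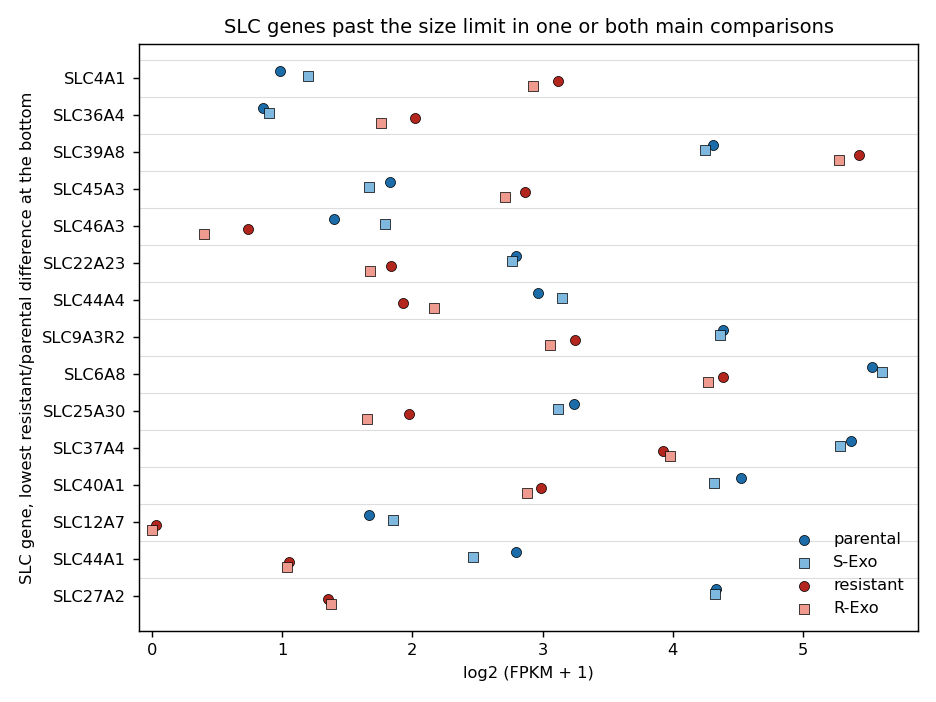
Levels as log2 (FPKM + 1) (horizontal axis) of the 15 SLC genes (vertical axis) counted in resistant against parental, in R-Exo against S-Exo or in both, with 1 point per library. Blue points (parental, S-Exo) lie to the right of red ones (resistant, R-Exo) for 11 genes and to the left for SLC4A1, SLC36A4, SLC39A8 and SLC45A3.

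Of the 4 metal carriers compared, both exporters of the plasma membrane were lower in resistant cells and both ZIP family carriers higher, and 2 of the 4 reached the limit. SLC40A1, ferroportin, the only known exporter of iron from vertebrate cells, had 22.0 FPKM in parental, 18.9 in S-Exo, 6.95 in resistant and 6.36 in R-Exo, a difference of -1.53. SLC30A1, the zinc exporter ZnT1 of the plasma membrane, had 8.96 FPKM in parental, 9.80 in S-Exo, 4.40 in resistant and 4.47 in R-Exo. Its ratio was 2.04 in favour of parental, and its difference of -0.88 did not reach the limit. SLC39A8, the importer ZIP8 of zinc, manganese and iron, had 18.8 FPKM in parental, 18.0 in S-Exo, 42.1 in resistant and 37.7 in R-Exo, a difference of 1.12. It was no longer counted with the median of all genes set to 0 (0.70) or after quantile normalization (0.99). SLC39A13, the zinc carrier ZIP13 of intracellular membranes, had 2.39 FPKM in parental, 1.88 in S-Exo, 4.32 in resistant and 4.17 in R-Exo (difference 0.65). The class held 5 listed genes, of which 1 was counted as higher and 1 as lower. Over all compared genes 28.0% were higher and 18.1% lower, which so few genes cannot be set apart from. The fifth gene of the class, SLC30A4, a zinc carrier of intracellular vesicles, was under 1 FPKM in every library (0.378, 0.396, 0.998 and 0.788).

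The iron and heme list had 3 of 35 genes in the table. TFRC, the transferrin receptor that takes up iron, had 224 FPKM in parental, 214 in S-Exo, 114 in resistant and 98.6 in R-Exo, with differences of -0.97 in resistant against parental and -1.11 in R-Exo against S-Exo. TFR2, an iron-sensing receptor of erythroid and liver cells, had 19.1, 18.1, 42.4 and 35.8 FPKM in that order. Its differences were 1.11 and 0.94. STEAP1, of a family of metal reductases, had 0.233, 0.276, 3.72 and 4.07 FPKM and differed by 1.94 and 1.99. Both TFR2 and STEAP1 lie on chromosome 7, as does ABCB1, while TFRC lies on chromosome 3. So 2 of the 3 were counted as higher in resistant and 0 as lower, and in R-Exo against S-Exo 1 was higher and 1 lower. Of all compared genes 28.0% were higher and 18.1% lower in the first comparison and 23.2% and 21.2% in the second, which 3 genes cannot be set apart from.

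**Figure D3:**
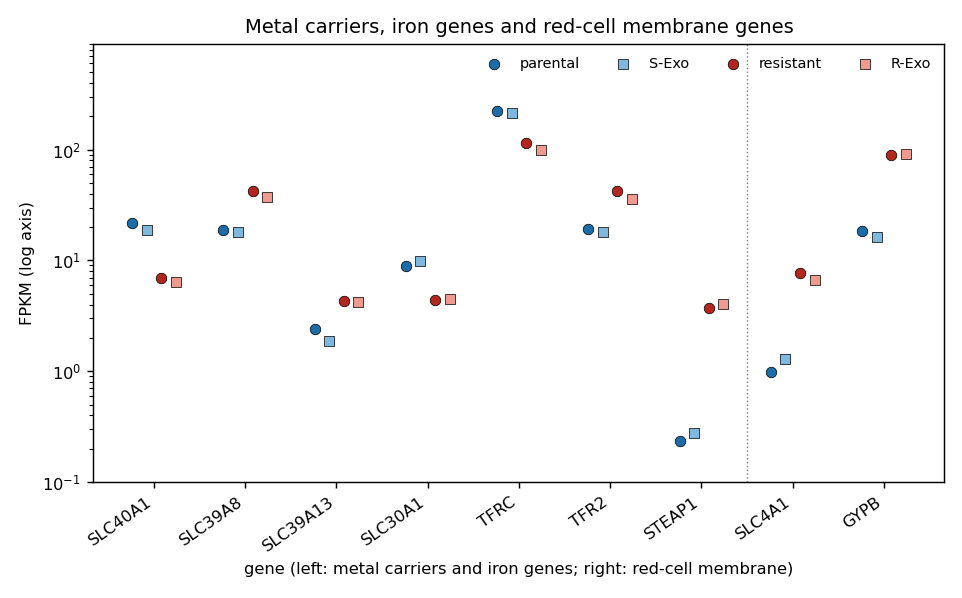
FPKM on a log axis (vertical) of metal carriers and iron genes (left of the dotted line) and of SLC4A1 with GYPB (right), with 1 point per library. SLC40A1, SLC30A1 and TFRC are lower in resistant and R-Exo, and the other 6 genes are higher there.

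The compared carriers of organic acids were lower in resistant cells, and mitochondrial carriers differed in sign. Of 3 mitochondrial carriers compared, 1 was counted as lower and 0 as higher. Over all compared genes 18.1% were lower and 28.0% higher, which so few genes cannot be set apart from. SLC25A30, a mitochondrial carrier known from kidney, had 8.44 FPKM in parental, 7.70 in S-Exo, 2.93 in resistant and 2.15 in R-Exo, a difference of -1.27. SLC25A15, the ornithine carrier of the urea cycle, had 13.0, 9.70, 6.65 and 5.83 FPKM (difference -0.87), and GENCODE lists 5 pseudogenes of it. SLC25A45 stood apart: it had 1.15 FPKM in resistant but 0.382 in parental, 0.368 in R-Exo and 0.0948 in S-Exo. Among organic acid and organic ion carriers 4 were compared, none reached the limit in resistant against parental (0 counted), and all 4 were lower, with a median of -0.91. The median of all compared genes was 0.42, which 4 genes cannot be set apart from. SLC22A23, an orphan of the organic ion family, lay just outside the limit at -0.96, with 5.95 FPKM in parental, 5.80 in S-Exo, 2.58 in resistant and 2.19 in R-Exo. It shares 15.6% of its exonic bases with PSMG4 on the opposite strand. SLC17A5, sialin, the lysosomal exporter of sialic acid, had 5.16, 4.16, 2.34 and 2.29 FPKM (difference -0.88). The monocarboxylate family members SLC16A5 and SLC16A13 differed by -0.93 and -0.54.

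SLC9A3R2 is caught by its symbol only. It encodes NHERF2, a scaffold protein that binds sodium-proton exchangers and other membrane proteins and is not itself a carrier. It had 19.9 FPKM in parental, 19.6 in S-Exo, 8.53 in resistant and 7.31 in R-Exo, a difference of -1.13. Without it, the counts were 8 lower and 4 higher of 29 carriers compared.

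By its labels, R-Exo against S-Exo compares K562 cells given vesicles of different origin, with the limit on the R-Exo library given above. Of 30 SLC genes compared, 10 were lower and 3 higher, or 33.3% and 10.0%, against 21.2% and 23.2% of all 2154 compared genes. The SLC median was -0.65 and that of all compared genes 0.21. With the latter set to 0, 12 were lower and 1, SLC4A1, was higher, against 31.5% and 15.4% of all compared genes. The lowest were SLC27A2 (-2.95), SLC12A7 (-1.85), SLC25A30 (-1.47), SLC40A1 (-1.43) and SLC44A1 (-1.43). SLC46A3 (-1.39) followed, with SLC6A8 (-1.33), SLC9A3R2 (-1.31), SLC37A4 (-1.31) and SLC22A23 (-1.09). The higher ones were SLC4A1 (1.73), SLC45A3 (1.05) and SLC39A8 (1.02), the last just inside the limit. SLC44A4 lay just outside it at -0.98.

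The comparisons of resistant with parental and of R-Exo with S-Exo share no library. Each counted 13 SLC genes, and 11 were counted in both, 84.6% of either list. All 29 SLC genes compared in both had the same sign, as did 1867 of 1986 over the whole table. Pearson's r across genes was 0.977 for the 29 SLC genes and 0.935 for the 1986, and Spearman's rho was 0.954 and 0.902. Genes are not independent replicates, and these coefficients describe 4 libraries. The selection of the genes as differentially expressed can also raise the coefficients and the shared signs. Counted in one comparison only were SLC36A4 and SLC44A4 (resistant against parental) and SLC22A23 and SLC46A3 (R-Exo against S-Exo), and each was on the same side in the other.

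**Figure D4:**
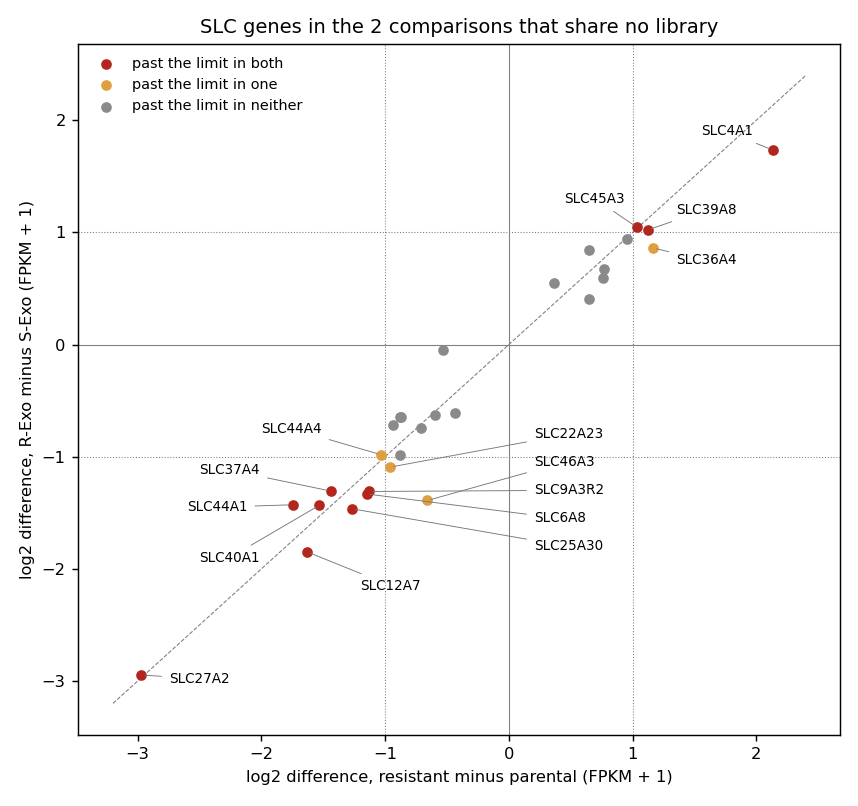
Log2 differences of the 29 SLC genes compared in both, with resistant minus parental on the horizontal and R-Exo minus S-Exo on the vertical axis. Dotted lines mark the size limit of 1 and the dashed line equality. The points lie along the dashed line from SLC27A2 (-2.97 and -2.95) to SLC4A1 (2.13 and 1.73).

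R-Exo against untreated parental cells gave 10 lower and 1 higher of 29 SLC genes compared, or 34.5% and 3.45%, against 21.5% and 23.5% of all 2115 compared genes. This comparison shares the parental library with the first, so the counts are only set side by side. The largest differences were those of SLC27A2 (-2.95), SLC4A1 (1.94), SLC44A1 (-1.76), SLC12A7 (-1.66) and SLC40A1 (-1.64). SLC25A15 was counted here (-1.03) and in neither main comparison. S-Exo against parental had 27 SLC genes compared and 0 counted in either direction, where 1.63% of all 1723 compared genes were higher and 1.22% lower. The differences ran from -0.38 (SLC25A15) to 0.39 (SLC46A3). Their median absolute size was 0.19, against 0.16 over all compared genes.

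R-Exo against resistant had 25 SLC genes compared and 0 counted in either direction, where 1.6% of all 1879 compared genes were higher and 1.22% lower. The differences ran from -0.65 for SLC25A45 to 0.58 for SLC16A13, with a median absolute size of 0.16, against 0.22 over all compared genes. For each gene the place of R-Exo on the log2 scale can be given as a percentage of the way from parental to resistant. It was 99.3% for SLC27A2, 101% for SLC44A1, 107% for SLC40A1, 110% for SLC6A8, 91.1% for SLC4A1 and 86.0% for SLC39A8. Of the 13 genes counted in resistant against parental, the lowest places were 77.0% (SLC44A4) and 77.4% (SLC36A4) and the highest was 125% (SLC25A30). A few weakly expressed genes did not follow. SLC16A13 had 1.63 FPKM in parental, 1.81 in S-Exo and 1.72 in R-Exo but 0.811 in resistant, a place of -9.02%. SLC25A45 lay at -2.32%. SLC16A5 had 1.95 FPKM in parental, 2.44 in S-Exo, 0.545 in resistant and 1.09 in R-Exo, a place of 53.1%.

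**Figure D5:**
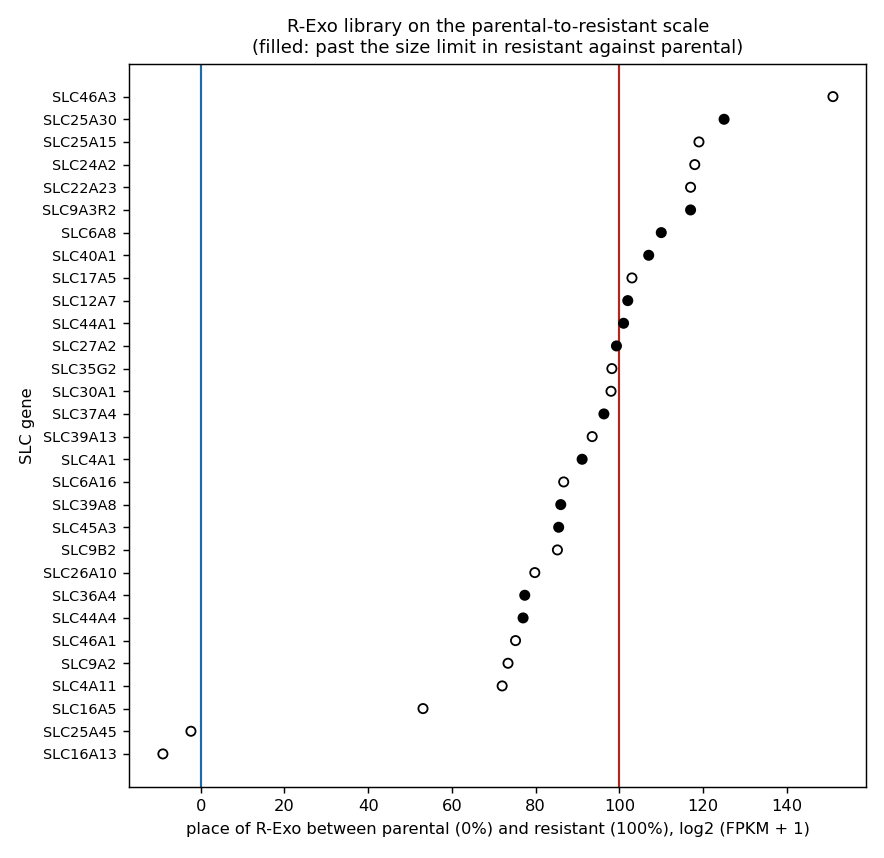
Place of the R-Exo library (horizontal axis, percent of the log2 distance from parental at 0 to resistant at 100) for the 30 SLC genes (vertical axis) compared between resistant and parental. Filled points mark the 13 counted genes, which lie between 77.0% and 125%, and SLC16A13 and SLC25A45 lie left of 0.

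In all, 11 genes were too weakly expressed for either main comparison and are given by their values. SLC22A15, an organic ion family member, had 0.00875 FPKM in parental and 0.0181 in S-Exo, but 0.571 in resistant and 0.600 in R-Exo. SLC6A19, a neutral amino acid carrier of gut and kidney, had 0.0244, 0.0241, 0.384 and 0.185 FPKM in the same order. SLC16A3, the lactate exporter MCT4, had 0.737 FPKM in parental, 0.667 in S-Exo, 0.180 in resistant and 0.246 in R-Exo. SLC25A48 had 0.295 FPKM in parental and 0.206 in S-Exo while both resistant and R-Exo listed it at 0, and SLC27A6 was listed at 0 in parental, with 0.149 to 0.307 FPKM elsewhere. The highest value among SLC6A19, SLC15A2, SLC16A3, SLC16A6, SLC22A15, SLC25A48, SLC26A11, SLC27A6, SLC30A4, SLC37A1 and SLC41A2 was 0.998 FPKM, that of SLC30A4 in resistant. Over all 42 genes, both resistant-like libraries lay below both parental-like ones for 22 genes and above them for 16, while 4 overlapped. Over the whole table these patterns held for 39.2% and 47.3% of genes. The overlapping genes were SLC16A13, SLC25A45, SLC27A1 and SLC41A2.

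Carriers with other symbols and the pumps that drive carriers were checked from lists. Of 61 SLC superfamily genes with other symbols, 4 were in the table. SLCO4C1, an organic anion transporter, had 0.142 FPKM in parental, 0.0760 in S-Exo, 2.26 in resistant and 1.39 in R-Exo, with differences of 1.51 and 1.15 in the 2 main comparisons. MFSD11 (9.87, 10.6, 20.9 and 15.0 FPKM) was counted as higher in resistant only, at 1.01. MFSD14A was counted as lower in resistant only, with 19.0 FPKM in parental, 17.9 in S-Exo, 5.71 in resistant and 11.7 in R-Exo (differences -1.58 and -0.58). The difference between the 2 comparisons could not be tested. Of 38 carrier partners and ion pumps 3 were in the table, and both compared were lower. They were ATP1B2, a subunit of the sodium pump (7.74, 7.39, 2.89 and 2.28 FPKM), and ATP7B, a copper exporter (8.74, 8.25, 2.73 and 2.43 FPKM). Over all compared genes, 28.0% were higher and 18.1% lower in resistant against parental, and 23.2% and 21.2% in R-Exo against S-Exo. The few compared genes of either list cannot be set apart from that.

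Metabolic genes were taken from lists as well. The cystine, glutathione and glutamine list had 4 of 18 genes in the table, of which 2 were lower in resistant and 3 in R-Exo against S-Exo, with none higher. Of all compared genes 18.1% and 21.2% were lower in these comparisons, and so few listed genes cannot be set apart from that. The counted ones were the serine synthesis genes PHGDH (25.7 FPKM in parental, 26.1 in S-Exo, 7.23 in resistant and 6.04 in R-Exo), PSAT1 (47.9, 46.6, 18.8 and 18.2) and, past the limit in R-Exo against S-Exo only, PSPH (11.7, 12.4, 6.88 and 5.18). CHAC1, also of this list, was lower without reaching the limit (differences -0.82 and -0.76). The folate, thiamine and nucleoside list had 4 of 26 genes, and ADA, adenosine deaminase, was the one counted, as higher (4.65, 3.80, 11.9 and 11.2 FPKM). Over all compared genes 28.0% were higher in resistant against parental and 23.2% in R-Exo against S-Exo.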

How the data were processed

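The authors deposited 1 table of FPKM values with a column for each of 4 libraries; unit and selection of differentially expressed genes come from the table's name. The submitters' processing notes name TopHat2, SAMtools 0.1.18, GATK and Picard, with no role. Genome build, annotation, counting tool and selection rule: not given in the sources used here. Depth is unknown: 195 genes between 0 and 0.15 FPKM in parental and S-Exo took 188 distinct log2 ratios at 3 decimals, so whole reads could not be recovered.

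Columns were matched to samples by library name. Differences were log2((a + 1)/(b + 1)) for genes that reached 1 FPKM in either library, counted at an absolute value of at least 1; the calculation was tested on simulated data. Python 3.11.15, pandas 2.3.3, numpy 2.4.6, scipy 1.17.1 and matplotlib 3.10.9 were used. Substrate classes followed family numbers, with exceptions by gene. All 42 identifiers were found in GENCODE release 29 (GRCh38), with the same symbol. Named were all members past the limit in either main comparison, up to 5 counted members in each other comparison, the 2 most expressed of each class, those nearest the limit, and listed genes of the other lists that were counted. A few of the genes so chosen are not reported here. Further members were named after their values had been seen. The members, lists and motifs were chosen with earlier results of these data known. Alternatives tried were quantile normalization, re-scaling, a limit of 1.5, a minimum of 5 FPKM, no filter, a pseudocount of 0.1 and the parental control for R-Exo.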

Additional observations from a re-analysis of the deposited data

How the results depend on the processing

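The lower side outnumbered the higher in the comparisons of resistant with parental and of R-Exo with S-Exo and with parental under every alternative run. A pseudocount of 0.1 gave 8 higher and 16 lower with a median of -1.06 in resistant against parental, 7 and 17 (median -1.10) in R-Exo against S-Exo, 5 higher (median -0.99) in R-Exo against parental, and 1 lower, SLC25A45, in R-Exo against resistant. Without a filter the medians of the first 3 were -0.35, -0.43 and -0.28, and with a minimum of 5 FPKM -0.997, -1.04 and -1.08. Re-scaling to a median of 0 gave 1 higher and 17 lower (median -1.10) in resistant against parental, 1 higher (median -0.86) in R-Exo against S-Exo, a median of -1.04 in R-Exo against parental and -0.0068 in R-Exo against resistant. Quantile normalization gave 1 higher (median -0.86) in resistant against parental and medians of -0.85 in R-Exo against parental and 0.0012 in R-Exo against resistant. A limit of 1.5 left 1 higher and 4 lower, 1 and 2, and 5 lower in the first 3. With parental as control of R-Exo, 1 was higher. The cause of these shifts was not tested beyond what each setting changes. Re-scaling takes the typical gene of this selected table as unchanged, and quantile normalization gives every library the same distribution. Neither assumption was tested. Of the 340 values of the 15 named genes, 316 kept their side of the limit and 24 did not. Of the 316, 5 changed sign within the limit, and no counted value changed sign. Dropping the filter or raising the minimum to 5 FPKM leaves a gene's difference as it was, so those values could not cross. In resistant against parental, re-scaling moved 5 values across the limit and kept 10. Quantile normalization moved 4 and kept 11, and the pseudocount of 0.1 moved 2 and kept 13. SLC36A4, SLC39A8 and SLC45A3 were not counted as higher in resistant after re-scaling (0.75, 0.70 and 0.62) or quantile normalization (0.98, 0.99 and 0.88). No paired analysis was possible because each group has 1 library. Depth is unknown, so genes near 1 FPKM are the least certain.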

Other observations

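Families with several listed members often held genes on both sides. Of 22 families, 13 had more than 1 member in the table. All listed members of the zinc importer family SLC39 (2 genes) had higher FPKM in resistant than in parental. Those of the sugar-phosphate family SLC37 (2) and the choline-transporter-like family SLC44 (2) had lower FPKM. The monocarboxylate family SLC16 had 3 members lower and 1, SLC16A6, higher (0.620 against 0.248 FPKM). The mitochondrial family SLC25, leaving out SLC25A40, had 3 lower and 1, SLC25A45, higher. The fatty acid transport family SLC27 had SLC27A2 lower, while SLC27A1 (0.757 against 0.710 FPKM) and SLC27A6 (0.307 FPKM, listed at 0 in parental) were weakly expressed. The families SLC4, SLC22, SLC26, SLC30 and SLC46 each had 1 member on either side. These signs rest on 1 library per group and were not tested.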
